A study of Mus musculus with 4 samples.

Results

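The 10 genes described here build, coat and break down the triglyceride store of the heart, and were chosen by symbol from the 43346 genes of the deposited mouse table: Gpam, Dgat1 and Dgat2 for synthesis, Plin2, Plin4 and Plin5 for the droplet coat, and Pnpla2, its inhibitor G0s2, Lipe and Ces1d for lipolysis. All 10 were found, and they were chosen with earlier results of these data known. Total RNA from hearts of C57BL/6 mice aged 6 weeks was sequenced after removal of ribosomal RNA, in 2 wild-type (WT) hearts and 2 hearts from mice with PRMT1 deleted in cardiomyocytes (PRMT1-cKO). PRMT1 is an arginine methyltransferase that acts on many nuclear and RNA-binding proteins. The deletion is described as specific to cardiomyocytes, so other heart cells keep the gene, and the promoter that drives the recombinase was not given in the sources used here. Nothing in the labels says that the 2 samples of a group came from separate litters or extractions, so p-values measure only the spread between these samples.

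Triglyceride synthesis starts when GPAM on the outer mitochondrial membrane, or its relatives at the endoplasmic reticulum, place a first acyl chain on glycerol 3-phosphate. A further chain and the loss of phosphate give diacylglycerol, and DGAT1 or DGAT2 adds the last chain. The product is held in lipid droplets whose surface carries perilipins, among them PLIN2, PLIN4 and PLIN5. Lipolysis starts with adipose triglyceride lipase (ATGL, the product of Pnpla2), which G0S2 inhibits and which needs the cofactor ABHD5. Hormone-sensitive lipase (Lipe) takes over at diacylglycerol, and Ces1d encodes a carboxylesterase with triglyceride hydrolase activity. In cardiomyocytes PLIN5 tethers droplets to mitochondria, and fatty acids set free by ATGL serve as fuel and as ligands of the nuclear receptor PPAR-alpha.

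In PRMT1-cKO hearts the synthesis genes Gpam and Dgat2 and the lipase gene Ces1d were lower, while the coat genes moved in both directions and the ATGL gene was higher. Dgat2 was 16.3-fold and Ces1d 25.1-fold lower, Plin5 3.84-fold lower, Gpam 2.71-fold lower and Plin4 1.61-fold lower. Pnpla2 was 2.20-fold and Plin2 1.49-fold higher, but DESeq2, a second test, called neither. Dgat1, Lipe and G0s2 did not pass the test. These folds are in gene reads, the sum of exon and intron reads that the authors deposited for each gene, tested with edgeR at an adjusted p under 0.05. Among all 13869 genes tested, 22.7% passed, 11.5% as higher and 11.2% as lower, beside 2 higher and 5 lower of the 10 genes here. The median log2 change was -0.66 over the 10 genes and 0.01 over all genes tested. Because the 10 genes were chosen with earlier results known, these counts and medians do not test the group.

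Upstream sequence was examined for the genes that moved, because several genes of this pathway are known targets of nuclear receptors. RefSeq on GRCm38.p6 gave the 250 bases before a start for 7 of the 10 genes. Dgat1, Dgat2 and Ces1d are named only, and of several starts of Gpam the one nearest the deposited gene model is shown. The windows of Gpam, Plin5, Plin2 and Pnpla2 are shown, each 5′ to 3′ on the strand of its gene and cut off where an annotated exon of the gene begins, with every match of the motifs below in capitals on either strand.
Gpam (chr19:55099478-55099727, minus strand): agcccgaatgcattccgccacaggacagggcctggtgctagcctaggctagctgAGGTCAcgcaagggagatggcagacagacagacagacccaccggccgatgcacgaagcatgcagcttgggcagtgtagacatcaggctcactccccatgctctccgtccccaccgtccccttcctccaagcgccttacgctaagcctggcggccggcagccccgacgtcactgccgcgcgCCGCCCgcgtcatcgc
Plin5 (chr17:56117597-56117798, minus strand): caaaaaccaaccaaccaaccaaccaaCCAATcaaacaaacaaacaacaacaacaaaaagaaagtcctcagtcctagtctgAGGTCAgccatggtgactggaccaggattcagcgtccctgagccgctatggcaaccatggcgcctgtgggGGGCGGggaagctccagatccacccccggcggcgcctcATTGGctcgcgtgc
Plin2 (chr4:86670061-86670309, minus strand): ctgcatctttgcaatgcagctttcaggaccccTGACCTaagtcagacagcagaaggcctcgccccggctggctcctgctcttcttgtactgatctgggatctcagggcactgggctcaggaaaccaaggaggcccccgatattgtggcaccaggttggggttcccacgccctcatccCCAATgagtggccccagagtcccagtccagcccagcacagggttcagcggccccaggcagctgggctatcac
Pnpla2 (chr7:141454938-141455187, plus strand): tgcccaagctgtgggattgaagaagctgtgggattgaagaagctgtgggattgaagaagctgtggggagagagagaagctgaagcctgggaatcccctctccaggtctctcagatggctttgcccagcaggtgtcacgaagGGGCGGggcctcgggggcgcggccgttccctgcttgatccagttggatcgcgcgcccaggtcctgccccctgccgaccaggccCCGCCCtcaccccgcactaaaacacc
The hexamer AGGTCA, the unit bound by nuclear receptors, stood 196 bases before the start in Gpam, 170 bases before it in Plin5 and 218 bases before it in Plin2. It occurred in 4607 of the 32851 windows in the table. Over all windows of the 7 genes, the GC box GGGCGG was found in Gpam, Plin5, Pnpla2, G0s2 and, at 6 places, Lipe, and in 32.7% of all windows in the table. A CCAAT box stood in Plin5, at 2 places, in Plin2, in Plin4 and in the other window of Gpam, and in 33.8% of all windows. The paired element AGGTCANAGGTCA, the form that PPAR binds together with RXR, was in 0.0335% of all windows, and none of the windows of these 7 genes held it. None held the TATA box TATAAA, which 12.4% of all windows had, and the E-box CACGTG, in 6.02% of all windows, was seen in Lipe. Gpam and Plin5, which fell, and Plin2, which rose in gene reads, thus share the hexamer, and a match of letters is not a binding site.

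The reads behind these values were of 2 kinds. Libraries held 25509854 and 21701967 gene reads in the WT hearts and 18291730 and 18674587 in the PRMT1-cKO hearts, of which the mitochondrial ribosomal RNA gene mt-Rnr2 took between 51.2 and 65.8%. Exon reads were few, between 544891 and 764806 per library, and all but 29 of 2605955 crossed an exon junction. Of 2588 genes with 1 annotated exon, 4 had any gene read, so reads inside a single exon seem to be missing for most genes. All other gene reads were deposited as intron reads. Gene reads of mt-Rnr2 outnumbered all exon reads of each library, so most of them were counted as intron reads. Whether the intron reads of a gene all lie outside its exons could therefore not be checked. The most that a count of 0 leaves room for is 3 reads, or 0.125 to 0.175 CPM (reads per 1000000 of the TMM-scaled library total) in gene reads and 3.95 to 5.44 CPM in exon reads, for counting error only. Prmt1 itself had 33 and 18 gene reads in the WT hearts and 33 and 44 in the PRMT1-cKO hearts. Its log2 change was 0.44 ± 0.34 (SE, edgeR adjusted p = 0.394), so its gene reads showed no fall. With 0 exon reads in each library, its deletion could not be checked in exon reads. Strand use in counting was not given in the sources used here, and 4 of the 10 genes overlap another annotated gene.

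**Figure D1:**
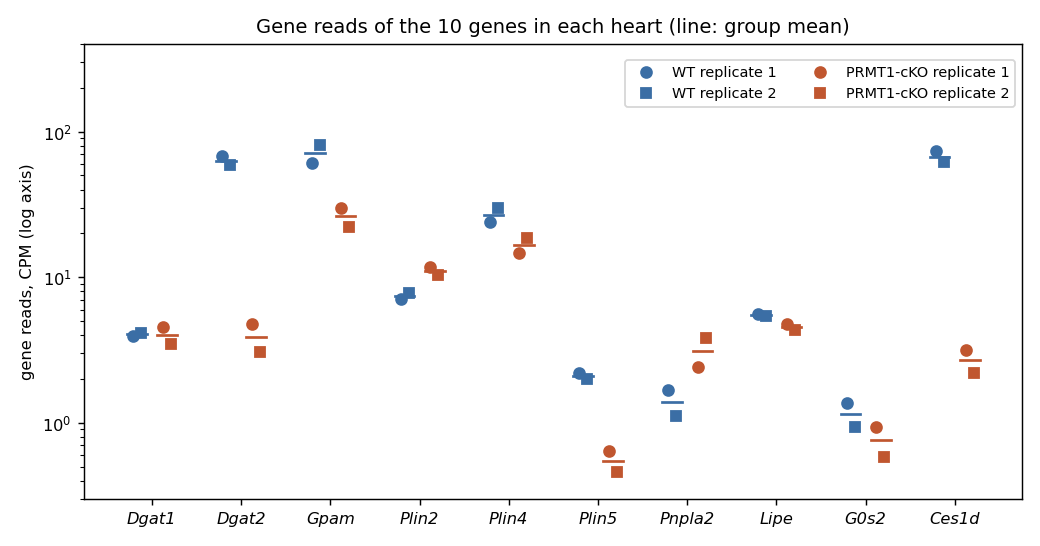
Gene reads of the 10 genes in each heart, in CPM on a log axis, with 2 points per group and a line at each group mean. The 2 groups lie farthest apart for Ces1d and Dgat2, do not overlap for 9 genes, and overlap for Dgat1. Among all genes tested, the groups did not overlap for 59.5%.

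Gpam, which encodes the mitochondrial acyltransferase of the first step, fell in PRMT1-cKO hearts. The gene (ENSMUSG00000024978) lies on the minus strand of chromosome 19, from 55069734 to 55099451 on GRCm38. Its level was 60.8 and 80.9 CPM of gene reads in WT replicates 1 and 2, and 30.0 and 22.3 CPM in PRMT1-cKO replicates 1 and 2. Every PRMT1-cKO value was below every WT value, although the 2 WT hearts themselves differed. The means were 70.9 ± 14.3 and 26.1 ± 5.47 CPM (SD of 2 hearts each), a log2 change of -1.44 ± 0.23 (SE, edgeR adjusted p = 1.35e-04). Of the 3 synthesis genes Gpam had the largest share of junction reads, with 85.0% of its gene reads in exon reads over the 4 libraries.

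Exon reads of Gpam fell, and its intron reads had a smaller change that did not pass. Exon reads numbered 1173 and 1260 in the WT hearts and 496 and 392 in the PRMT1-cKO hearts, a log2 change of -1.72 ± 0.14 (edgeR adjusted p = 1.06e-07). Intron reads numbered 201 and 126 in the WT hearts and 116 and 141 in the PRMT1-cKO hearts. Scaled to the length outside exons, they came to 0.350 and 0.297 against 0.236 and 0.227 CPM per kilobase. The groups did not overlap on that scale, but the log2 change of -0.49 ± 0.20 did not pass (edgeR adjusted p = 0.0861). Compared within the gene by edgeR's diffSpliceDGE, the exon change less the intron change was -1.14 on the log2 scale (adjusted p = 0.00700), against a median of 0.18 over the 4196 genes with both kinds of read, 8.03% of which passed. Gpam was the single gene of the 10 to pass, and 5 of them could be tested. The call was lost without WT replicate 1 (adjusted p = 0.0952) or WT replicate 2 (adjusted p = 0.581).

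Dgat2, one of the enzymes of the last step, showed one of the largest falls of the group. The gene (ENSMUSG00000030747) lies on the minus strand of chromosome 7, from 99153663 to 99182713. Gene reads numbered 1527 and 1012 in the WT hearts and 97 and 73 in the PRMT1-cKO hearts, which is 67.5 and 59.1 CPM against 4.75 and 3.05 CPM. Both PRMT1-cKO hearts were far below both WT hearts. The means were 63.3 ± 5.98 and 3.90 ± 1.21 CPM (SD of 2 hearts each), a log2 change of -4.03 ± 0.26 (SE, edgeR adjusted p = 2.58e-09). Exon reads and intron reads both fell. The log2 change was -4.15 ± 0.17 in exon reads (1009 and 720 against 61 and 54 reads, edgeR adjusted p = 6.51e-11) and -3.98 ± 0.28 in intron reads (518 and 292 against 36 and 19 reads, edgeR adjusted p = 9.36e-12). The exon change less the intron change of Dgat2 was -0.06 on the log2 scale and did not pass (diffSpliceDGE adjusted p = 0.965).

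Dgat1, the other enzyme of the last step, had no change that passed. The gene (ENSMUSG00000022555) lies on the minus strand of chromosome 15, from 76502015 to 76511951. Its gene reads were 3.94 and 4.15 CPM in the WT hearts and 4.56 and 3.47 CPM in the PRMT1-cKO hearts, so the WT values lay between the PRMT1-cKO values. The log2 change was -0.01 ± 0.24 (SE, edgeR adjusted p = 0.979), and it was also small beside its error in exon reads (-0.18 ± 0.40, adjusted p = 0.764) and in intron reads (0.01 ± 0.25, adjusted p = 0.991). Within a library, the deposited RPKM of Dgat2, junction reads scaled by exon length, was 68.4 and 61.1 times that of Dgat1 in WT and 3.60 and 4.88 times in PRMT1-cKO. This ratio does not depend on the library total. In gene reads the ratio of Dgat2 to Dgat1 was 17.2 and 14.3 in the WT hearts and 1.04 and 0.880 in the PRMT1-cKO hearts, and in intron reads it was 7.51 and 5.31 against 0.514 and 0.279. The ratio was lower in both PRMT1-cKO hearts on each scale, while which of the genes had more reads in those hearts depended on the scale.

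Of the perilipin genes, Plin5 fell 3.84-fold from a low level. Plin5 (ENSMUSG00000011305) lies on chromosome 17, from 56111601 to 56117596 on the minus strand, 1797 bases beyond Plin4. Gene reads numbered 50 and 34 in the WT hearts and 13 and 11 in the PRMT1-cKO hearts, or 2.21 and 1.99 CPM against 0.637 and 0.459 CPM. The groups did not overlap, and the log2 change was -1.94 ± 0.38 (SE, edgeR adjusted p = 7.69e-04). Exon reads were 3 and 3 in the WT hearts and 0 and 0 in the PRMT1-cKO hearts, too few to test, so the call rests on intron reads. In those intron reads the log2 change was -1.83 ± 0.39 (47 and 31 against 13 and 11 reads, edgeR adjusted p = 7.12e-04).

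Plin4 (ENSMUSG00000002831), a perilipin of adipocytes and striated muscle, fell 1.61-fold, with a call that rests on both WT hearts. It occupies 56100591 to 56109803 on the minus strand of chromosome 17 and overlaps Hdgfl2 by 17 bases. Its gene reads were 23.8 and 30.0 CPM in the WT hearts and 14.8 and 18.6 CPM in the PRMT1-cKO hearts, without overlap. The log2 change was -0.69 ± 0.21 (SE, edgeR adjusted p = 0.0207), and the call was lost without WT replicate 1 (adjusted p = 0.0637) or WT replicate 2 (0.325). None of its reads crossed a junction: 538 and 514 gene reads in the WT hearts and 301 and 446 in the PRMT1-cKO hearts were all counted as intron reads. Intron reads of Plin4 were scaled to the 3436 bases outside its exons. They came to 8.09 ± 1.45 CPM per kilobase in the WT hearts and 5.01 ± 0.570 in the PRMT1-cKO hearts (SD of 2 hearts each). These were the highest values of the 10 genes in each group. Reads inside its 5777 exon bases may be among them, so the rank need not hold for reads outside exons. Without junction reads, the spliced RNA of Plin4 could not be told apart from unspliced RNA here.

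Plin2, the perilipin found in nearly all cells that hold droplets, was higher in gene reads. The gene (ENSMUSG00000028494) lies on the minus strand of chromosome 4, from 86648386 to 86670060. Gene reads were 7.03 and 7.77 CPM in the WT hearts and 11.7 and 10.4 CPM in the PRMT1-cKO hearts, without overlap. The log2 change was 0.57 ± 0.20 (SE, edgeR adjusted p = 0.0439), and this call was lost without any of 3 hearts, WT replicate 1 (adjusted p = 0.420), the second WT heart (0.209) and PRMT1-cKO replicate 1 (0.104). In exon reads the groups overlapped, with 51.9 and 96.1 CPM in the WT hearts and 93.5 and 74.5 CPM in the PRMT1-cKO hearts, and the log2 change was 0.20 ± 0.30 (edgeR adjusted p = 0.639). Intron reads of Plin2 passed, at 0.69 ± 0.20 (126 and 80 against 167 and 199 reads, edgeR adjusted p = 0.0145), and lost the call without WT replicate 1 (adjusted p = 0.0804) or WT replicate 2 (0.221). Within Plin2 the exon change less the intron change was -0.39 on the log2 scale and did not pass (diffSpliceDGE adjusted p = 0.669), so no difference between the kinds of read was shown.

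Among the lipase genes, Ces1d showed the largest fall of the 10. Ces1d (ENSMUSG00000056973) lies on the minus strand of chromosome 8, from 93166068 to 93197838, where Gm45909, a transcript still awaiting experimental evidence, overlaps it by 1031 bases on the same strand. Gene reads numbered 1660 and 1052 in the WT hearts and 65 and 53 in the PRMT1-cKO hearts, or 73.4 and 61.4 CPM against 3.19 and 2.21 CPM. Both PRMT1-cKO hearts were far below both WT hearts. The means were 67.4 ± 8.48 and 2.70 ± 0.687 CPM (SD of 2 hearts each), a log2 change of -4.65 ± 0.26 (SE, edgeR adjusted p = 1.29e-09). Exon reads numbered 503 and 410 in the WT hearts and 31 and 27 in the PRMT1-cKO hearts, 18.7-fold lower by the fit (edgeR adjusted p = 1.00e-10), and intron reads numbered 1157 and 642 against 34 and 26, 32.3-fold lower (adjusted p = 6.95e-14). The exon change less the intron change was 0.89 on the log2 scale and did not pass (diffSpliceDGE adjusted p = 0.226).

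Ces1d belongs to a cluster of close carboxylesterase copies, so its reads are uncertain to the extent that copies share sequence. The other 7 genes of the cluster together had 49 and 43 gene reads in the WT hearts and 38 and 42 in the PRMT1-cKO hearts, with at most 9 exon reads in any library. Each gene's reads were deposited as placed uniquely. Ces1e, which lies on the same strand with 3379 bases between it and Ces1d, had 25 and 25 gene reads in the WT hearts and 5 and 6 in the PRMT1-cKO hearts. All of them were counted as intron reads.

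Pnpla2, which encodes ATGL, was higher in gene reads, and all but 1 of its reads were counted as intron reads. The gene (ENSMUSG00000025509) lies on the plus strand of chromosome 7, from 141455198 to 141460743. Gene reads numbered 38 and 19 in the WT hearts and 49 and 91 in the PRMT1-cKO hearts, or 1.68 and 1.11 CPM against 2.40 and 3.80 CPM. The groups did not overlap, and the log2 change was 1.13 ± 0.32 (SE, edgeR adjusted p = 0.0135). Leaving out WT replicate 2 gave an adjusted p of 0.128, and leaving out PRMT1-cKO replicate 2 one of 0.156, so the call rests on both. Exon reads numbered 0 and 1 in the WT hearts and 0 and 0 in the PRMT1-cKO hearts, too few to measure its spliced RNA by junction reads. Intron reads gave a log2 change of 1.16 ± 0.31 (edgeR adjusted p = 0.00593) and lost the call in the absence of the same 2 libraries (adjusted p = 0.0932 and 0.0952).

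G0s2, the inhibitor of ATGL, had few reads and no change that passed. The gene (ENSMUSG00000009633) is short, from 193272161 to 193273217 on the minus strand of chromosome 1, and lies inside the locus of Lamb3 on the opposite strand. All of its reads were exon reads, 31 and 16 in the WT hearts and 19 and 14 in the PRMT1-cKO hearts. Scaled to gene reads this is 1.37 and 0.934 CPM in the WT hearts and 0.931 and 0.585 CPM in the PRMT1-cKO hearts. The values of WT replicate 2 and PRMT1-cKO replicate 1 nearly met. The log2 change was -0.64 ± 0.42 (SE, edgeR adjusted p = 0.316) in gene reads and -0.75 ± 0.41 (adjusted p = 0.169) in exon reads, errors wide enough that a difference of this size was not detectable.

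Lipe, which encodes hormone-sensitive lipase, had no change that passed. The gene (ENSMUSG00000003123) lies on the minus strand of chromosome 7, from 25379527 to 25398710, and the antisense gene 4732471J01Rik covers all 19184 bases of it, so reads of the pair could be told apart only if strand was used in counting. Gene reads were 5.57 and 5.37 CPM in the WT hearts and 4.80 and 4.34 CPM in the PRMT1-cKO hearts. The groups did not overlap, yet the log2 change of -0.26 ± 0.22 (SE) did not pass (edgeR adjusted p = 0.443). Exon reads were 1 and 3 in the WT hearts and 1 and 9 in the PRMT1-cKO hearts and were not tested. The groups failed to overlap in 9 of the 10 genes, as they did in 59.5% of all genes tested, so a lack of overlap alone says little with 2 hearts per group.

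**Figure D2:**
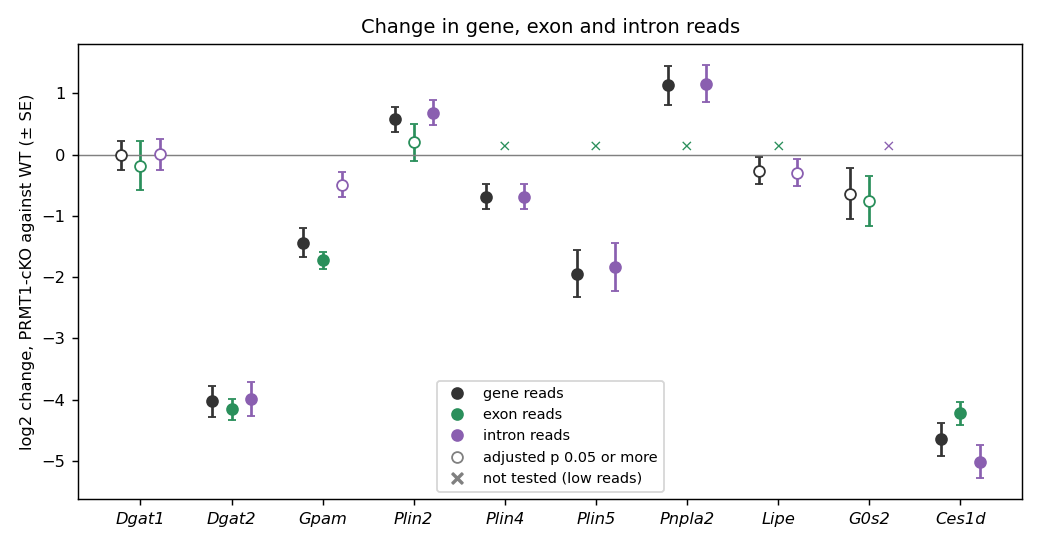
Log2 change of PRMT1-cKO against WT (± SE, n = 2 per group) for the 10 genes in gene, exon and intron reads. Open symbols did not pass the edgeR test and crosses mark genes with too few reads to test. Dgat2 and Ces1d lie near or below -4 in all 3 kinds of read, and the exon value of Gpam lies below its intron value.

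The choice of reads changed what could be said of each gene. In exon reads 6 of the 10 genes could be tested, 3 passed as lower (Dgat2, Gpam and Ces1d) and 0 as higher (0 at an unadjusted p under 0.05 and 0 by DESeq2), beside 17.6% higher and 18.6% lower of 4756 genes tested by edgeR. In intron reads 9 could be tested, with 2 higher (Plin2 and Pnpla2) and 4 lower (Dgat2, Ces1d, Plin4 and Plin5), beside 10.8% higher and 11.0% lower of 13217 genes. The calls of Dgat2 and Ces1d were made in all 3 kinds of read. The share of gene reads that were exon reads over the 4 libraries was 68.1% for Dgat2, 34.3% for Ces1d, 26.5% for Plin2, 22.0% for Dgat1, 5.56% for Plin5, 3.33% for Lipe and 0.508% for Pnpla2. The authors' deposited table, from their own test, called the same 5 genes lower at a corrected p-value under 0.05 and called Pnpla2 higher, with a signed fold of 2.19 (corrected p = 0.0185). In the authors' deposited table Plin2 had a signed fold of 1.48 and a corrected p-value of 0.139.

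Deposited RPKM values ranked the genes differently in the 2 groups. Nearly all exon reads cross a junction, so these values follow the number of junctions in a gene as well as its level, and genes with few exons, such as G0s2 with 2, are not on a common scale with the others. By deposited RPKM, Dgat2 (16.2 ± 2.00, SD, n = 2) and Gpam (13.6 ± 2.23) led in WT hearts, and their ranges overlapped. Ces1d followed at 8.15 ± 0.246 RPKM, then G0s2 at 1.12 ± 0.388, Plin2 at 0.532 ± 0.231 and Dgat1 at 0.249 ± 0.0108, and the ranges of these neighbours did not overlap. Plin5, Lipe, Pnpla2 and Plin4 were at or under 0.0613 RPKM on average, from at most 3 exon reads per library in WT. In PRMT1-cKO hearts Gpam led at 6.28 ± 1.13 RPKM, above Dgat2 at 1.38 ± 0.139 RPKM. G0s2 (1.03 ± 0.235), Plin2 (0.926 ± 0.253) and Ces1d (0.663 ± 0.0743) came next, and the ranges of G0s2 and Plin2 overlapped. The RPKM values share a total that mt-Rnr2 dominates, so they were compared within groups and not between them.

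**Figure D3:**
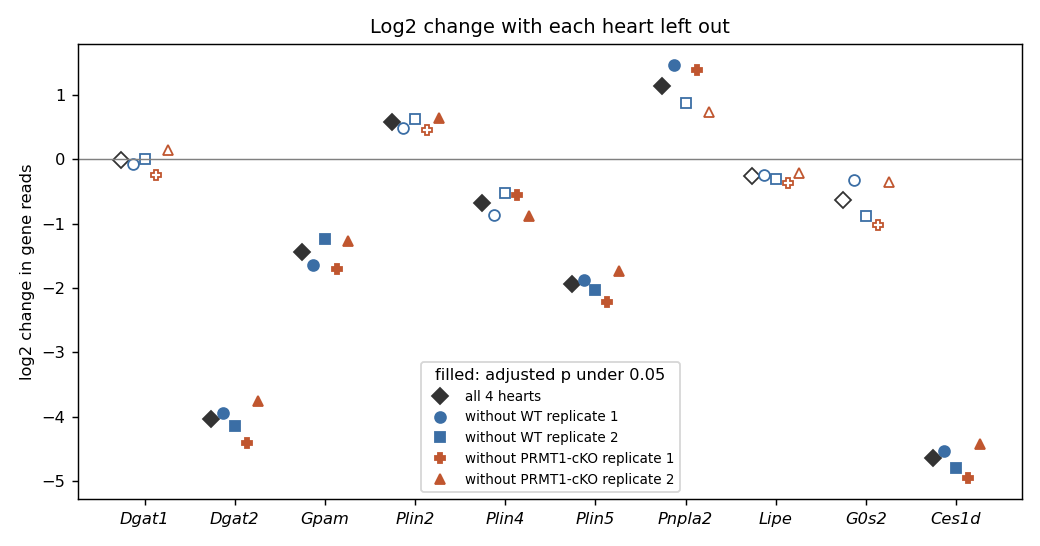
Log2 change in gene reads of the 10 genes with each heart left out in turn, beside the value with all 4 hearts. Filled points had an edgeR adjusted p under 0.05. Dgat2, Gpam, Plin5 and Ces1d stay filled in every case, and Plin2, Plin4 and Pnpla2 do not.

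The calls of 4 genes did not depend on a single heart. With each heart left out in turn, the log2 change in gene reads lay between -4.40 and -3.76 for Dgat2, -4.96 and -4.42 for Ces1d, -1.70 and -1.24 for Gpam and -2.21 and -1.74 for Plin5, and each kept an adjusted p under 0.05. The 2 genes called higher were never both called in these fits. Without WT replicate 2 neither was called, and the other fits called 1 each.

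Most other genes of triglyceride synthesis had no change that passed. Of 15 tested, 0 were higher and 4 lower in gene reads, with a median log2 change of -0.18. Among all 13869 genes tested in gene reads, 11.5% were higher and 11.2% lower. Acsl4 and Acsl5, which activate fatty acids, were the 2 genes higher at an unadjusted edgeR p under 0.05, and DESeq2 called 0 higher. Of the 16 genes named by the rule from the synthesis, droplet and lipase lists, 9 overlap another annotated gene, often an antisense one, and their reads are uncertain to that extent. Lpin1, a phosphatidate phosphatase that makes diacylglycerol, fell from 710 and 553 to 201 and 251 gene reads (log2 change -1.65 ± 0.20, edgeR adjusted p = 5.21e-06), while its exon reads, 30 and 35 against 36 and 12, did not pass (-0.72 ± 0.41, adjusted p = 0.191). Mogat2, an acyltransferase that makes diacylglycerol from monoacylglycerol, fell from 146 and 117 to 22 and 19 gene reads (-2.83 ± 0.28, adjusted p = 4.00e-07). Mogat2 is the next coding gene beyond the start of Dgat2, 36370 bases away on the same strand, and at most 3 of its reads in any library were exon reads. Acsl6 (-2.30 ± 0.53, adjusted p = 0.00291) and Agpat5 (-0.62 ± 0.21, adjusted p = 0.0359) were the others, and both calls were lost without WT replicate 1 (adjusted p = 0.177 and 0.263), that of Agpat5 also without WT replicate 2 (0.131).

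Acsl1, the main acyl-CoA synthetase of the heart, differed between the kinds of read, as Gpam did. Its gene reads, 492 and 374 in the WT hearts and 366 and 524 in the PRMT1-cKO hearts, gave a log2 change of -0.13 ± 0.20 (edgeR adjusted p = 0.706). Its exon reads, 62 and 65 against 8 and 13, fell by 2.84 on the log2 scale (SE 0.36, adjusted p = 1.41e-05). Within the gene the exon change less the intron change was -2.84 on the log2 scale (diffSpliceDGE adjusted p = 4.68e-08). Acsl5, a relative, had 102 and 94 exon reads in the WT hearts and 245 and 120 in the PRMT1-cKO hearts, a log2 change of 0.62 (edgeR adjusted p = 0.0487) whose call was lost without either WT heart or without PRMT1-cKO replicate 1. Acsl1 and Acsl5 were the 2 genes that passed among the 7 of this list tested in exon reads. Of all genes tested in exon reads, 17.6% were higher and 18.6% lower.

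The other droplet genes included members that fell in exon reads. Of 14 tested, 2 were higher and 2 lower in gene reads, with a median log2 change of 0.11. In exon reads 0 were higher and 3 lower of 7, with 0 higher at an unadjusted edgeR p under 0.05 and 0 by DESeq2. The shares over all genes were 11.5% higher and 11.2% lower in gene reads, and 17.6% and 18.6% in exon reads. Plin3, the perilipin that moves between cytosol and droplets, fell in both, at -1.39 ± 0.20 in gene reads (edgeR adjusted p = 4.28e-05) and -1.08 ± 0.21 in exon reads (adjusted p = 7.18e-04). Fitm1, the muscle form of the protein that helps droplets bud, fell from 28 and 33 to 7 and 6 gene reads (-2.39 ± 0.47, adjusted p = 8.82e-04). Its relative Fitm2, which an antisense gene overlaps, moved in opposite directions, with gene reads up from 47 and 61 to 155 and 215 (1.58 ± 0.25, adjusted p = 1.11e-04) and exon reads down from 20 and 38 to 4 and 4 (-3.09 ± 0.55, adjusted p = 3.92e-04). Within Fitm2 the exon change less the intron change was -5.71 (diffSpliceDGE adjusted p = 1.63e-16). Hilpda, an inhibitor of ATGL like G0s2, had a log2 change of 1.69 ± 0.60 (edgeR adjusted p = 0.0493) that was not called with any 1 heart left out.

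Of 12 other lipase genes tested, 2 were higher and 3 lower in gene reads, with a median log2 change of -0.04. The shares over all genes tested were 11.5% higher and 11.2% lower. Lpl, the lipase that takes fatty acids from circulating triglyceride, fell from 2204 and 1532 to 392 and 432 gene reads (-2.33 ± 0.23, edgeR adjusted p = 3.78e-07), and as far in exon reads (-2.36 ± 0.23, adjusted p = 1.02e-06). Mgll, the monoacylglycerol lipase of the last step of lipolysis, fell at -1.26 ± 0.21 (adjusted p = 1.55e-04) with 0 exon reads. Ces1e fell at -2.33 ± 0.49 (adjusted p = 0.00149). The carboxylesterase gene Ces2g rose in gene reads (1.92 ± 0.40, adjusted p = 0.00134) and in exon reads (8 and 17 against 65 and 51, 1.94 ± 0.38, adjusted p = 9.01e-04), the opposite direction to Ces1d. Pnpla7, a relative of Pnpla2 that acts on lysophospholipid, had 0.62 ± 0.22 (adjusted p = 0.0499), a call lost without either WT heart or PRMT1-cKO replicate 2. Lipa, the lysosomal acid lipase, passed in exon reads alone (2.10 ± 0.60, adjusted p = 0.0117) and not without WT replicate 2 (0.100), nor without PRMT1-cKO replicate 1 (0.269). Abhd5, the cofactor of ATGL, had a log2 change of -0.15 ± 0.23 (adjusted p = 0.699).

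**Figure D4:**
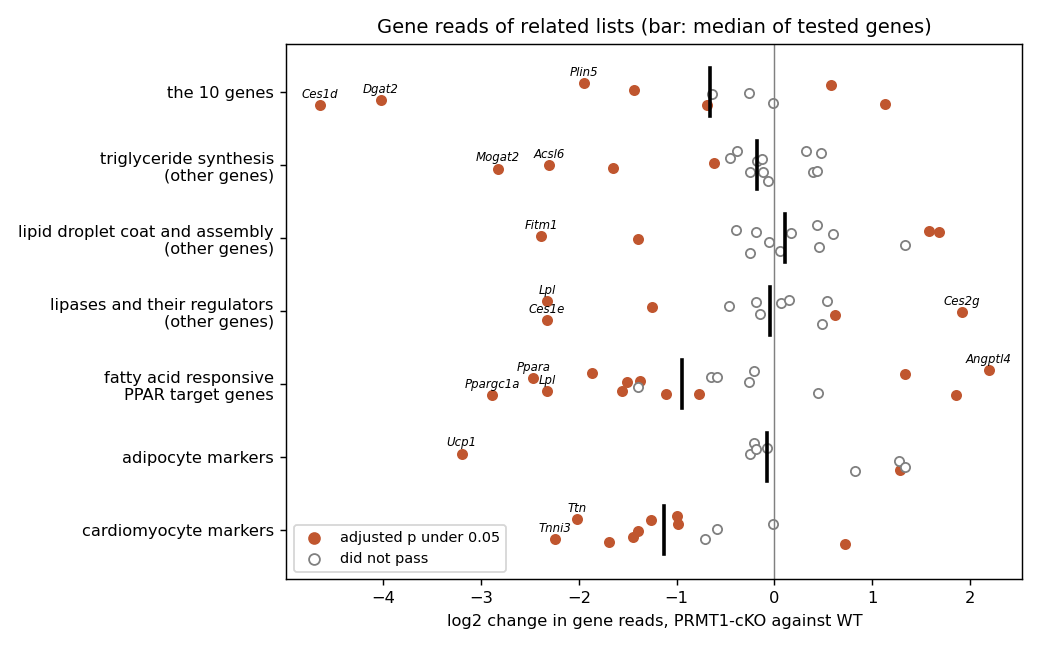
Log2 change in gene reads of every tested gene in each list, with a bar at the median of the list. The 10 genes reach below -4, the other synthesis, droplet and lipase genes have medians of -0.18, 0.11 and -0.04, and the PPAR list and the cardiomyocyte markers have medians of -0.94 and -1.13.

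Many genes that respond to fatty acids through PPAR fell. Of 18 tested, 3 were higher and 9 lower in gene reads, with a median log2 change of -0.94. In exon reads 2 were higher and 10 lower of 14. Over all genes tested, 11.5% were higher and 11.2% lower in gene reads, and 17.6% and 18.6% in exon reads. The receptor gene Ppara fell at -2.46 ± 0.24, its coactivator gene Ppargc1a at -2.89 ± 0.32 and the carnitine carrier gene Slc25a20 at -1.86 ± 0.20. Exon reads of Slc25a20 fell at -2.30 ± 0.17 (edgeR adjusted p = 4.36e-08). Its exon change less its intron change was -2.19 on the log2 scale (diffSpliceDGE adjusted p = 2.10e-04). Angptl4, which encodes an inhibitor of LPL, rose from 15 and 10 to 45 and 85 gene reads (2.20 ± 0.37, edgeR adjusted p = 1.64e-04). Lpl belongs to both this list and the lipase list.

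Markers of cell types moved as well. Their counts in gene reads stand beside 11.5% higher and 11.2% lower of all genes tested. Of 12 cardiomyocyte markers 8 were lower and 1 higher, with a median log2 change of -1.13, and their summed gene reads were 6159 to 6370 CPM in WT and 2909 to 3311 CPM in PRMT1-cKO, none at 0. In RNA of whole hearts, fewer cells of a type and less RNA per cell cannot be told apart. Dgat2, Lipe and other genes here are also used by fat cells, which lie around the heart. Of 14 adipocyte markers without those 2, 9 could be tested, 1 was higher (Cfd, not called without WT replicate 1, nor without PRMT1-cKO replicate 1) and 1 lower (Ucp1), and the summed gene reads were 159 to 161 CPM in WT and 148 to 157 CPM in PRMT1-cKO. Fabp4, which endothelial cells also use, and Pparg made up most of these sums, and the other 12 markers summed to 12.4 and 16.1 CPM in the WT hearts against 23.3 and 13.1 CPM in the PRMT1-cKO hearts, with overlap. Adipoq had 3 and 6 gene reads in the WT hearts and 12 and 13 in the PRMT1-cKO hearts, and Lep, Slc7a10 and Adrb3 had 0 exon reads in all libraries. Summed macrophage and leukocyte markers, from cells that also hold Plin2, were 24.4 to 25.4 CPM in WT and 57.8 to 77.0 CPM in PRMT1-cKO, and all 8 tested were higher. All 8 fibroblast markers were higher too, with sums of 142 to 196 CPM against 456 to 849 CPM. Endothelial markers had 1 higher and 2 lower of 9, with sums of 195 to 198 CPM against 181 to 195 CPM. In exon reads their sums were 1604 to 1804 CPM against 1051 to 1053 CPM, with 1 higher and 1 lower of 5 tested. Of all genes tested in exon reads, 17.6% were higher and 18.6% lower. The part of cell composition in the values of the 10 genes was not tested.

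Genes most like the largest rise and the largest fall were found by distance between profiles of log2 CPM relative to the WT mean, over the 4 libraries and 12072 genes. Nearest to Ces1d were Lrrc52 (distance 0.35), Cox7a1 (0.40) and Rgs13 (0.55). Cox7a1, a heart and muscle subunit of cytochrome c oxidase, had 3179 and 2906 gene reads in the WT hearts and 156 and 114 in the PRMT1-cKO hearts. Nearest to Pnpla2 were Hipk2 (0.15), Aass (0.15) and Fkbp1b (0.17), each with its highest count in PRMT1-cKO replicate 2, as Pnpla2 had. With 4 libraries in 2 groups, likeness of this kind mostly restates the size of the change.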

How the data were processed

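The 4 samples were 2 WT and 2 PRMT1-cKO hearts. RiboMinus removed ribosomal RNA and a SOLiD total RNA kit made the libraries, per the labels' protocols. The build is GRCm38 per the submitters' processing notes, with aligner and counter not given in the sources used here. Raw counts of gene, exon and intron reads were deposited by the authors for each gene. They also deposited RPKM values, which are exon reads per kilobase of exon, scaled to total gene reads. Per the file headers, the table holds p-values and a signed fold score from the authors' EDGE test. Exon number and length were read from the deposited table as well.

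Counts were tested with edgeR (version 4.0.16, R 4.3.3; filterByExpr at its minimum count of 10 and total of 15, TMM scaling, quasi-likelihood test, two-sided, genotype as the only term), with Benjamini-Hochberg adjustment over all genes tested and a threshold of 0.05. CPM values use TMM-scaled totals. SE was taken as log2 change over the root of F. Each gene's exon and intron reads were set against each other with diffSpliceDGE. The procedure was tested on simulated data. In gene reads it recovered 60% of genes changed by 1 on the log2 scale and 99% of those changed by 2. These shares were 73.7% and 97% in exon reads and 74% and 100% in intron reads. With diffSpliceDGE, 139 of 185 genes changed by 2 were recovered. False calls numbered 11 in gene reads, 18 in exon reads, 5 in intron reads and 14 with diffSpliceDGE. Alternatives were DESeq2 1.42.0, its size factors, no read filter, a replicate block, a joint interaction fit and leaving out each library. Sequences came from RefSeq and overlaps from GENCODE M21, both on mouse build 38.

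All 10 genes are named in each kind of read. From each list, up to 6 genes with the largest change past the threshold in gene reads and up to 3 in exon reads are named, and for the largest rise and fall the 3 most similar profiles, without genes known by a number or clone name. Prmt1, Abhd5 and Adipoq were added as checks after their values were seen. The members and lists were chosen with earlier results of these data known. 1 gene that the rule names is not reported here.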

Additional observations from a re-analysis of the deposited data

How the results depend on the processing

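The falls of Dgat2, Gpam, Plin5 and Ces1d in gene reads passed in all 11 settings tried, including the block. The 2 genes called higher in gene reads became 1 without the read filter, 1 with the replicate block and 0 with DESeq2, and 0 to 1 without 1 library. Plin2 had an adjusted p of 0.0697 without the filter, 0.167 with DESeq2 and 0.105 with the block, Pnpla2 0.0728 with DESeq2, and Plin4 0.0651 with the block. The 2 higher in intron reads became 0 to 2 without 1 library. Over all genes, leaving out 1 library gave 1815 to 3552 calls in gene reads against 3154 (856 to 1713 higher, 959 to 1839 lower) and 1632 to 3036 in intron reads against 2886 (765 to 1391 higher, 867 to 1645 lower). The lowest came without WT replicate 1. In exon reads it gave 1263 to 1699 against 1724 (605 to 858 higher, 658 to 841 lower). DESeq2 called 1047 genes higher in gene reads against 1601, and 1096 in exon reads (520 higher, 576 lower). Exon against intron reads gave 337 genes, 53 to 625 without 1 library and 518 in the joint fit, in which Gpam kept its call (adjusted p = 4.62e-04). The cause of these shifts was not tested.

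Changes of sign occurred in values that had not passed. Dgat1 ranged from -0.25 to 0.15 on the log2 scale in gene reads without 1 library, with 0.0035 without WT replicate 2, from -0.40 to 0.0229 in exon reads and from -0.20 to 0.17 in intron reads. Plin2 in exon reads ranged from -0.21 to 0.67. The exon change less the intron change ranged from -0.35 to 0.39 for Dgat2, -1.002 to 0.33 for Plin2 and -0.39 to 0.18 for Dgat1.

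Same-numbered replicates did not shift together. The correlation of replicate 1 minus replicate 2 between the groups was -0.30 in gene, -0.05 in exon and -0.23 in intron reads. With 1 such difference per group, it cannot show whether the samples were paired. The replicate block gave 2806 calls in gene reads, 1567 in exon reads and 2561 in intron reads. The crossed pairing, added after seeing the data, gave 4329, 1806 and 3702 calls, and under it the intron log2 change of Dgat1 was -0.0031. Few exon reads limit Plin4, Plin5, Pnpla2 and Lipe, whose spliced RNA could not be tested in junction reads.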
